A study of Homo sapiens with 2 samples.

Results

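The OAS and MX genes encode interferon-induced antiviral effectors, and all 6 of them were read in HaCaT, a keratinocyte line of human epidermis that immortalised spontaneously, with and without added FLI1. The genes OAS1, OAS2, OAS3, OASL, MX1 and MX2 were taken by symbol from a gene table of 15159 genes, and their 29 transcripts by gene ID from a transcript table of 61479. The study has 2 libraries, 1 from a dish given the empty MigR1 plasmid (genotype label Vector) and 1 from a dish given MigR1-Fli1 (genotype label FLI1 overexpression), which encodes the ETS-family transcription factor FLI1. Each dish took 4 µg of plasmid with a lipid reagent, its medium was replaced after 6 h, and total RNA was taken on day 2, after a look at GFP. The 2 groups therefore share transfection with plasmid DNA, and no untransfected cells were analysed here. How many cells took up plasmid is not given in the sources used here. RNA came from whole dishes, so a response in more cells and more RNA per cell cannot be told apart.

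OAS proteins sense double-stranded RNA, and OAS1, OAS2 and OAS3 then link ATP into 2′-5′ oligoadenylates (2-5A). 2-5A is a messenger of the antiviral response. OASL has the same fold but makes no 2-5A. It carries ubiquitin-like domains at its C terminus and is known to enhance signalling by the RNA sensor RIG-I. MX1 and MX2 are large GTPases of the dynamin superfamily: MX1 acts in the cytoplasm, best known against influenza virus, and MX2 acts near nuclear pores against HIV-1 and herpesviruses. In most cells these genes are switched on by interferon through the factor complex ISGF3, which includes IRF9 and binds the interferon-stimulated response element in their promoters.

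The response element is shown first, because it is the known control sequence that the OAS and MX genes have in common. RefSeq promoter windows (GRCh38.p14) run from 250 bases before to 50 bases after a transcription start, and OAS1, OAS3 and MX1 had 1, 1 and 3 of them. OAS2, OASL and MX2 are not shown, and neither are some of the MX1 stretches that held matches. Windows were searched on both strands for the core GAAANNGAA, and, after the windows had been read, also for GAAANGAAA, which has 1 base between the repeats. Capitals mark matches to either form, which can overlap, and all stretches are on the plus strand, printed 5′ to 3′.
OAS1, chr12:112906925-112906961: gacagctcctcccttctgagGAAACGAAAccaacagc
OAS3, chr12:112938306-112938359: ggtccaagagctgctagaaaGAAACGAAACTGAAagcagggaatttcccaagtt
OAS3, chr12:112938442-112938473: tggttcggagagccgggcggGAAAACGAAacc
MX1, chr21:41420559-41420588: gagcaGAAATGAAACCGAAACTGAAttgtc
MX1, chr21:41426106-41426154: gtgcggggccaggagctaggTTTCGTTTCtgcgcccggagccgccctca

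The core GAAANNGAA was in 3 of the 5 windows: at -143 and at -12 before the OAS3 start, at 12 and at 18 after the first MX1 start, and at -195 before the third MX1 start, on the minus strand. It was in 8.11% of all 35116 promoter windows. GAAANGAAA was in 4 of the 5 windows, at -17 in OAS1 and at -148 in OAS3 among them, and in 3.12% of all windows. Since this form was picked after these windows had been read, its presence in them is no independent result. The gamma-activated element TTCNNNGAA was found at -168 in OAS1 and at -189 before the third MX1 start, against 7.66% of all windows. The ETS site CCGGAAGT was in none of the 5 windows and in 4.14% of all windows. These matches describe sequence, and no binding was measured.

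The libraries held 14497105 reads (vector control) and 14677273 reads (FLI1) after each estimated count had been rounded. The gene FLI1 had 64 reads in the control and 2452 where it was added, a log2 ratio of 5.26, so the 2 labels matched the targeted gene. The 8 listed keratinocyte markers were all measured, with 238033 and 236410 summed reads. The near-equal sums do not mean that each marker was level: 4 had an interval of the log2 ratio above 0 and 3 below it. Listed markers of fibroblasts (101 and 100 summed reads), leukocytes (39 and 49), endothelium (53 and 92) and melanocytes (66 and 176, of which PMEL had 3 and 97) were few, and CD3E, PTPRC and PECAM1 are not listed in the table. The part of these markers in the results was not tested. With 1 library per group there is no replicate check and no p-value. Every interval in this text is a 95% interval for counting error alone, which compares these 2 libraries and not the conditions.

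All 6 OAS and MX genes had more reads in the FLI1 library, and all 6 intervals of the log2 ratio lay above 0. The median log2 ratio of the 6 was 1.25, against -0.0036 over the 11659 genes that had at least 20 reads in at least 1 library. A ratio of at least 2-fold was found for 4 of the 6, OASL, MX1, MX2 and, barely, OAS2. Among the 11659 genes, that size was reached upward by 1.19% and downward by 0.480%, while 16.5% had an interval wholly above 0 and 14.7% one wholly below. The 6 genes were chosen with earlier results of these data known, so these contrasts are no independent evidence. Together the 6 genes took 9078 reads in the control and 16812 with FLI1, a log2 ratio of 0.90 (0.86 to 0.93). Nearly all of these reads came from the OAS genes, with 8989 and 16518 reads, while the MX pair had 89 and 294.

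**Figure D1:**
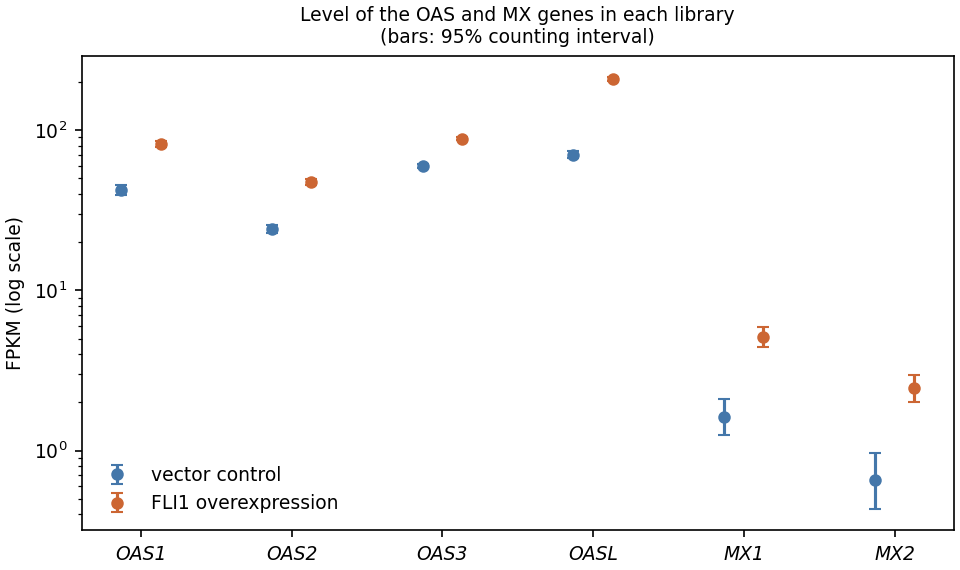
FPKM (log scale) of each OAS and MX gene in the vector control (blue) and the FLI1 library (orange), with 95% counting intervals as bars. Each gene is higher in the FLI1 library, and both MX genes lie far below the OAS genes in either library.

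Among the 2-5A synthetases, OAS1 (gene ID 4938; GRCh38 chromosome 12, 112906777 to 112933222, plus strand) had 830 reads in the control and 1630 with FLI1. Its deposited level was 42.23 and 81.91 FPKM, that is, reads scaled for transcript length and library depth. The log2 ratio was 0.98 (0.86 to 1.10), so the interval held 2-fold. OAS1 is the smallest of these enzymes, with a single OAS unit.

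OAS2 (gene ID 4939; chromosome 12, 112978395 to 113011723, plus strand), which has a pair of OAS units, had 1073 reads in the control and 2167 with FLI1. Its level was 24.07 FPKM in the control and 47.46 with FLI1. The log2 ratio was 1.02 (0.92 to 1.13), close to that of OAS1, the intervals of both genes overlapped, and that of OAS2 also held 2-fold. Scaled by library totals instead of TMM, the ratio of OAS2 fell just short of 2-fold, and 3 of the 6 genes then passed that size.

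OAS3 (gene ID 4940; chromosome 12, 112938352 to 112973249, plus strand) encodes the largest enzyme, 1087 residues in its main transcript. It had 5431 reads in the control and 8143 with FLI1, the most of the 6 genes. In FPKM, which allows for its long transcript, it stood at 59.39 and 88.02. Its log2 ratio of 0.59 (0.54 to 0.64), or 1.51-fold, was the lowest of the 6 genes, and its interval overlapped with that of none of the other 5. OAS3 lies between OAS1 and OAS2 on the chromosome, so the gene in the middle of the cluster had the smallest ratio. An antisense gene, AC004551.1, spans OAS1, OAS3 and OAS2, but of the 75-base words in their coding transcripts only 0.387% of those of OAS1, and none of those of OAS2 or OAS3, also occurred in it.

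OASL, the member that makes no 2-5A (gene ID 8638; chromosome 12, 121019111 to 121039242, minus strand), had 1655 reads in the control and 4578 with FLI1. Its level was the highest of the 6 genes in both libraries, 70.03 FPKM in the control and 207.18 with FLI1. The log2 ratio was 1.48 (1.39 to 1.56), or 2.78-fold, with the whole interval beyond 2-fold. Among all genes its FPKM rank moved from 1336 to 368. OASL made up 35.8% of the summed FPKM of the 4 OAS genes in the control and 48.8% with FLI1, while OAS3 made up 30.3% and 20.7%.

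The MX genes were low in the control and had the largest ratios from reads, though OASL had the largest from FPKM or TPM with 0.5 added. MX1 (gene ID 4599; chromosome 21, 41420304 to 41459214, plus strand) had 62.09 estimated reads in the control and 191.4 with FLI1, or 1.63 and 5.15 FPKM. The log2 ratio was 1.62 (1.21 to 2.07), or 3.08-fold. MX1 was the only one of the 6 genes whose reads were not whole numbers. Of the 75-base words in its coding transcripts, 1.96% also occurred in AP001610.1, an antisense transcript that overlaps it, and the strand setting is not given in the sources used here.

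MX2 (gene ID 4600; chromosome 21, 41361943 to 41409390, plus strand) had 27 reads in the control and 103 with FLI1, or 0.66 and 2.46 FPKM. Its log2 ratio of 1.92 (1.32 to 2.61), or 3.78-fold, was the highest of the 6 from reads and had the widest interval, on the fewest reads. The intervals of MX1, MX2 and OASL all overlapped with one another. Of the 15 pairs of members, 11 had intervals apart and 4 had intervals that overlapped: those 3 pairs and OAS1 with OAS2.

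**Figure D2:**
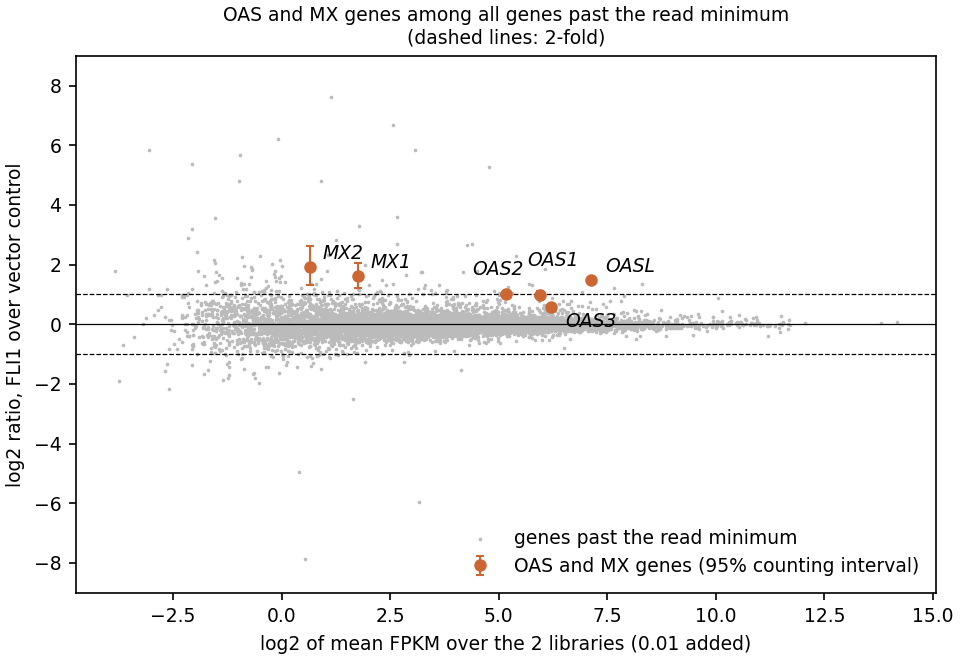
Log2 ratio of FLI1 over vector control against the log2 of mean FPKM for 11659 genes (grey) and the 6 OAS and MX genes (orange, 95% counting intervals), with dashed lines at 2-fold. The MX genes lie at low levels where grey points spread widely, while OASL lies far above the narrow grey band at its level.

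The order of the levels was the same in both libraries: OASL, OAS3, OAS1, OAS2, MX1, MX2, from high to low in FPKM. In the control, neighbours in this order had counting intervals apart, as with OASL (66.7 to 73.5) and OAS3 (57.8 to 61.0). In the FLI1 library OASL (201.2 to 213.3) stood far above OAS3 (86.1 to 90.0), and OAS3 and OAS1 (78.0 to 86.0) nearly touched. Ranked by log2 ratio among the 11659 genes, MX2 was number 34, MX1 51, OASL 59, OAS2 131, OAS1 149 and OAS3 401. OAS3, the lowest of the 6, thus still stood in the upper part of the ranking.

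The transcript table splits each gene's reads over RefSeq models by the authors' estimate, and its sums matched the gene table to within 0.01 reads for all 6 genes. Of the 29 transcripts, 12 reached 20 reads in the control and 5 more in the FLI1 library alone. Those 5 (XM_006719434, XM_005260980, XM_017028351, XM_011529571 and NM_002463) passed the minimum through the library in which they were high, so their direction is no result. The 12 all had an interval of the log2 ratio above 0. Over the 37706 transcripts of the table that reached 20 reads in at least 1 library, 28.9% had an interval above 0 and 27.3% below it. That rule is wider than the one for the 12, which asked for 20 reads in the control. Of the 12 OAS and MX transcripts under 20 reads in both libraries, 2 had an interval above 0, 9 had one that held 0, and 1, XM_011529568 of MX1, had one below 0. Models whose names start with XM are computational predictions. Shares are given as percent of the gene's reads, with exact binomial intervals that leave out the error of assigning reads.

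For OAS1, NM_016816 held 92.1% of the reads in the control (764.75 reads) and 90.7% with FLI1 (1479 reads). This transcript encodes the p46 form of 400 residues, which ends in a signal for prenylation, a lipid anchor that takes p46 to membranes. NM_002534, the p42 form of 364 residues without that signal, held 2.91% and 3.77%. The intervals of both shares overlapped between the libraries. The last 60 coding bases of both forms, from the transcript sequences of GENCODE release 29, show how they end, with the final codons and the stop in capitals.
NM_016816: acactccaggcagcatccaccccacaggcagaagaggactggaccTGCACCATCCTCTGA
NM_002534: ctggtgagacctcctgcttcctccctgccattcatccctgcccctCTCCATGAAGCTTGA

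The capitals of NM_016816 spell the prenylation signal, a cysteine followed by threonine, isoleucine and leucine. The 2 coding sequences are identical for 1039 bases, which cover 346 residues, and then part. The other OAS1 transcript that reached 20 reads, XM_006719434, had 13.44 and 50.08 reads. XM_017019361 had 18.77 and 15.87 reads, and its log2 ratio of -0.23 (-1.30 to 0.80) had an interval apart from that of the whole gene. Its share was 2.26% (1.38 to 3.55) and 0.974% (0.562 to 1.59), with intervals that overlapped.

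OAS2 was spread over 3 transcripts. NM_002535, the p69 form of 687 residues, had 677.05 reads in the control and 1305.27 with FLI1, and NM_001032731, a short form of 172 residues, had 272.2 and 491.88. NM_016817, the p71 form of 719 residues, had 123.76 and 369.84 reads, a log2 ratio of 1.58 (1.29 to 1.89). Its share was 11.5% (9.70 to 13.6) in the control and 17.1% (15.5 to 18.7) in the FLI1 library, with intervals apart. For OAS3, NM_006187 held 88.7% and 89.4% of the reads, with intervals that overlapped.

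Among the 6 genes, OASL showed the clearest difference in transcript make-up. How often shares lie apart over all genes was not computed, so such a difference cannot be called particular to OASL. NM_003733, the full-length p59 form of 514 residues with the ubiquitin-like domains, had 1413.54 reads in the control and 3355.45 with FLI1 (log2 ratio 1.25, 1.16 to 1.34). Its share was 85.4% (83.6 to 87.1) in the control and 73.3% (72.0 to 74.6) in the FLI1 library. NM_198213, the short form of 255 residues that ends before the ubiquitin-like domains, had 84.7 and 378.3 reads (2.15, 1.82 to 2.52), a share of 5.12% (4.12 to 6.31) against 8.26% (7.48 to 9.09). The predicted transcript XM_017020140 had 115.49 and 776.74 reads (2.76, 2.48 to 3.06), a share of 6.98% (5.77 to 8.28) against 17.0% (15.9 to 18.1). All 3 shares had intervals apart, and full-length OASL was still the main form in both libraries.

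The place where the coding sequences of NM_003733 and NM_198213 part, after 657 shared bases (219 residues), is shown from the transcript sequences of GENCODE release 29, with shared bases in lower case and the bases that follow in capitals.
NM_003733: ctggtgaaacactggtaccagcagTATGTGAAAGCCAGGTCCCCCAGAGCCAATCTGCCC
NM_198213: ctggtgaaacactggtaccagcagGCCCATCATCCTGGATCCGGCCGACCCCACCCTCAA

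NM_003733 goes on for 888 coding bases after this place and NM_198213 for 111. From its reads per FPKM, XM_017020140 was counted at 0.512 (control) and 0.510 (FLI1) of the length of NM_003733. It had no match in the GENCODE release used, and what it encodes is not described here. Per TPM, which counts molecules rather than bases, XM_017020140 made up 12.3% of OASL in the control and 27.7% with FLI1, and NM_003733 made up 76.9% and 61.2%. The FPKM of OASL gave a ratio of 2.96-fold against 2.78-fold from reads scaled by TMM. The mean transcript length behind the control FPKM was 1.08 times that behind the other. Scaling matters too: by library totals the log2 ratio from reads was 1.45, against 1.48 by TMM.

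**Figure D3:**
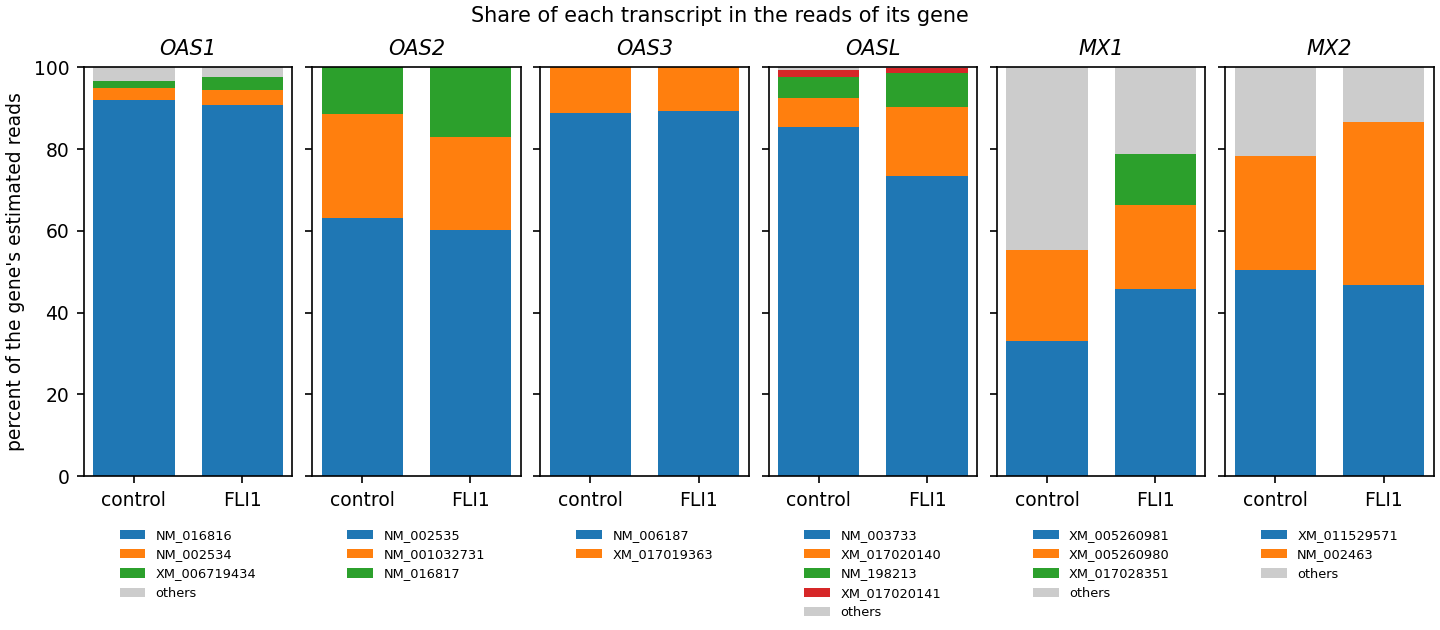
Percent of each gene's estimated reads held by each transcript that reached 20 reads (colours) and by all others (grey), in the vector control and the FLI1 library. The blue share of OASL, NM_003733, is 85.4% in the control and 73.3% with FLI1, while the shares of OAS1 and OAS3 have intervals that overlap.

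The MX transcripts rest on few reads. For MX1, XM_005260981 had 20.53 and 87.4 reads and XM_005260980 had 13.78 and 39.3, while XM_017028351 had 0 and 23.83. The share of XM_017028351, 0% with an upper limit of 5.78% in the control against 12.5% (8.22 to 18.1), had intervals apart. XM_011529568 was the opposite case in the same gene, with 9.56 and 0 reads and a share of 15.4% (8.02 to 27.7) against 0% with an upper limit of 1.91%, also apart. The reference form NM_002462, of 662 residues, had 8.94 and 14.07 reads. For MX2, XM_011529571 had 13.57 and 48.17 reads and the reference form NM_002463, of 715 residues, had 7.6 and 41.08. The shares of both MX2 transcripts had intervals that overlapped. Over all 17 transcripts that reached 20 reads, 5 shares had intervals apart and 12 had intervals that overlapped. This tally takes in transcripts that passed the minimum through the FLI1 library alone, and XM_017028351, counted as apart, is among them. It leaves out XM_011529568, which was apart the other way, so the tally is no result about direction. How often shares lie apart over all transcripts was not computed, so 5 of 17 cannot be called many or few.

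Of other genes tied to 2-5A, ABCE1 and PDE12 had ratios near 0. ABCE1, an ATPase of ribosome recycling that is also linked to this pathway, had 2854 and 2873 reads (log2 ratio 0.0174, -0.0579 to 0.0926), and PDE12, which degrades 2-5A, had 688 and 670 (-0.0304). AKAP7, whose mouse counterpart can degrade 2-5A, had 13 and 16 reads, under the minimum of 20, and ENPP1 is not listed in the table. The intervals of ABCE1, PDE12 and AKAP7 all held 0.

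Relatives of the OAS fold, the nucleotidyltransferase fold shared by CGAS and the NF45 and NF90 proteins, had a median of -0.0497 in 6 measured genes. An interval lay above 0 for 2 of them and below 0 for another 2. MB21D2 (0.36, 0.0230 to 0.71), the RNA-binding protein gene ZFR (0.12) and its relative STRBP (-0.12, -0.23 to -0.0015) had the largest ratios in size among those 4. None of the 6 was at least 2-fold different.

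Listed partners of MX proteins and constitutive members of the dynamin superfamily also had medians near 0, while the guanylate-binding proteins had a higher one. Of 7 listed partners of MX proteins, the median was 0.0103, and 2 had an interval above 0: TNPO1, a nuclear import receptor (0.16, 0.10 to 0.22), and PPIA, cyclophilin A (0.0572, 0.0273 to 0.0872). The helicases DDX39A (-0.0878) and DDX39B (-0.0422), which bind MX1, the nuclear pore genes RANBP2 (0.0392) and NUP214 (0.0103) and the capsid-binding factor CPSF6 (-0.0601) had intervals that held 0. The constitutive members of the dynamin superfamily had a median of 0.0687 in 13 genes past the minimum, 3 with an interval above 0. Those 3 were EHD4 (0.25, 0.15 to 0.34), EHD2 (0.15) and OPA1 (0.0833). The guanylate-binding proteins, large GTPases induced mainly by interferon gamma, stood at a median of 0.17 over 6 genes past the minimum, and the intervals of GBP4 (0.57, 0.39 to 0.75) and GBP3 (0.32, 0.16 to 0.47) were above 0. No gene past the minimum in these 3 lists was 2-fold higher. The reads of GBP4 and GBP3 were not all whole numbers.

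Of 42 other interferon-stimulated genes past the minimum, 37 had an interval above 0, 1 had one below it and 13 were at least 2-fold higher, with a median of 0.59. ISG20, an exonuclease (1.76, 1.41 to 2.13), IFI44L (1.44, 0.84 to 2.11) and RSAD2, which encodes viperin (1.33, 1.24 to 1.42), had the largest ratios. This list was drawn up with earlier results of these data known, so its direction is no independent evidence. Its lowest gene, LY6E, was at -0.17 (-0.26 to -0.0739). The ratios of OAS1, OAS2, OAS3, OASL and MX1 lay within the range of this list, and MX2 exceeded its highest gene, ISG20, with intervals that overlapped. From FPKM with 0.5 added this order turned, with MX2 at 1.35 and ISG20 at 1.74.

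**Figure D4:**
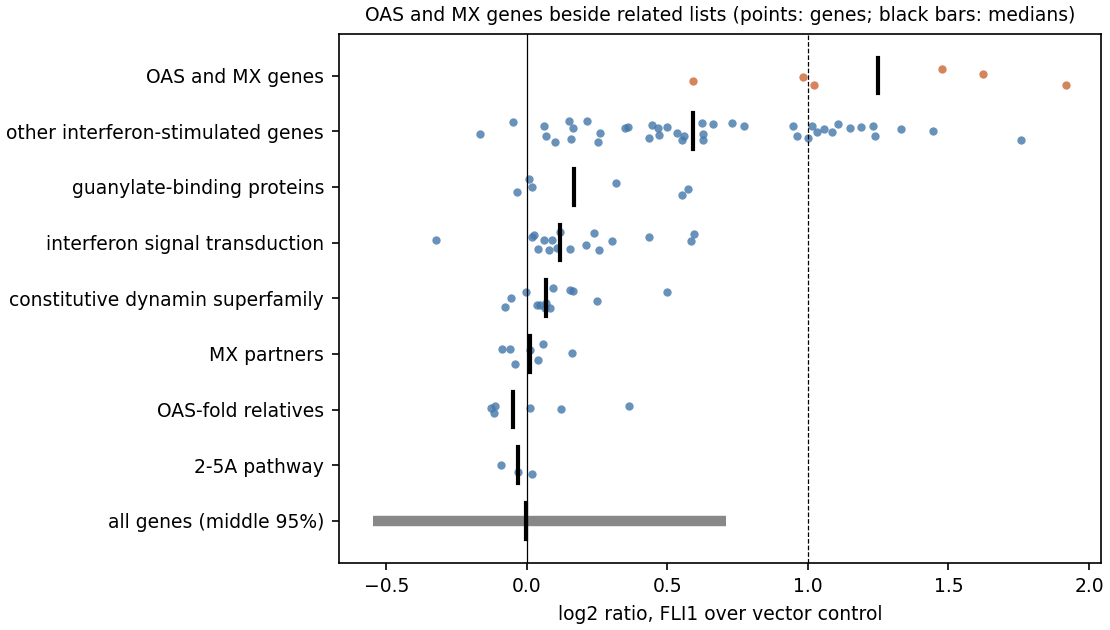
Log2 ratio of FLI1 over vector control for the 6 OAS and MX genes (orange) and for the genes past the read minimum in 7 related lists (blue), with medians as black bars, and the middle 95% of all genes (grey, -0.55 to 0.71). The medians are 1.25 for the OAS and MX genes, 0.59 for the other interferon-stimulated genes and at most 0.17 for the remaining lists.

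Genes that carry the interferon signal had a median of 0.12 in 17 genes past the minimum, 7 with an interval above 0 and none below it. The factor genes IRF7 (0.59, 0.34 to 0.85) and IRF9 (0.59, 0.41 to 0.76) had the largest ratios, each less than 2-fold. Of 22 interferon genes, 8 are listed in the table and IFNE alone passed the minimum, with 22 and 21 reads. IFNB1 had 2 and 8 reads, IFNL1 1 and 7, and IFNL2 1 and 5.01, named here after their values had been seen. Of the other listed genes, IFNA13 and IFNW1 went the other way, each with 1 and 0 reads, while IFNA1 had 0 and 2 and IFNL3 0 and 1.99. IFNL2 and IFNL3 are near-identical copies, so the split of their reads is uncertain. The intervals of all 8 listed genes held 0, so no difference in any single 1 of them was detectable at this depth. Summed over the 8 listed genes, reads were 28 in the control and 45 with FLI1, of which IFNE had 22 and 21. No interval was computed for this sum, and a difference in the interferon genes as a set was not tested.

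The measured neighbours of the OAS and MX loci named here had ratios below 2-fold or few reads. Neighbours were the nearest protein-coding genes in GENCODE release 29. Some lie far off: PTPN11 at 396.9 kb, RIPK4 at 280.2 kb, P2RX4 at 170.6 kb and BACE2 at 79.4 kb. Beside the cluster of OAS1, OAS3 and OAS2, the phosphatase gene PTPN11 had 5236 and 5380 reads (0.0469, -0.0082 to 0.10) and RASAL1 had 1 and 2, and RPH3A and DTX1 are not listed in the table. Beside OASL, the ATP-gated channel gene P2RX4 had 30 and 53 reads (0.82, 0.16 to 1.53) and P2RX7 had 4 and 11. The ratio of P2RX4 was above that of OAS3 (0.59), with intervals that overlapped. Beside MX2 and MX1, the protease gene BACE2 had 1126 and 1156 reads (0.0457, -0.0739 to 0.17) and the kinase gene RIPK4 had 1438 and 1712 (0.26, 0.16 to 0.36). FAM3B and TMPRSS2, which lie 4.51 and 5.34 kb from the pair, had 1 and 2 reads and 0 and 3 reads. None of the neighbours named here that passed the minimum was at least 2-fold higher.

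The gene most like each member was taken as the one with the smallest distance in log2(FPKM + 0.5) over the 2 libraries. For OAS3 it was IFI44 (distance 0.0353; 59.33 and 90.21 FPKM), and for OASL it was IFIT2 (0.380; 77.77 and 162.56 FPKM), both interferon-stimulated genes. The other nearest genes were the chemokine gene CXCL8 for OAS1 (0.129), TM4SF19 for OAS2 (0.0697), PRR9 for MX1 (0.231) and the phospholipase gene PLA2G2F for MX2 (0.0359). OASL was farthest from its nearest gene. With 2 libraries, likeness says only that level and ratio were close.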

How the data were processed

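Whole-dish RNA of 2 HaCaT libraries, 1 per genotype label, was sequenced on a BGISEQ instrument per the labels' protocols. The submitters' processing notes name GRCh38.p13, and none of the sources used here names an aligner, a counting tool, an annotation or a strand setting. Per the file headers, the deposited gene and transcript tables hold estimated counts (whole to within 0.005 reads for 84.1% and 84.5% of genes), FPKM and TPM per library. FPKM gave levels, and the deposited TPM gave shares per molecule and an alternative scale.

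Estimated counts were rounded, although raw counts had been foreseen, and scaled by TMM over the whole table (edgeR 4.0.16, R 4.3.3; factors 1.01 and 0.991). Log2 ratios are FLI1 over vector control with 0.5 reads added. Their 95% intervals are exact conditional (Clopper-Pearson), and those of levels exact Poisson (scipy 1.17.1). The calculation was tested on simulated counts. Genes needed 20 reads in 1 library. Alternatives were library totals, DESeq2 1.42.0 size factors, FPKM, TPM, other added values, no rounding and other minimums.

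Members and lists were chosen with earlier results of these data known. Named genes are all members, the 2-5A pathway and MX partner lists, locus neighbours, the nearest gene in level, and from each other list up to 3 with the largest ratio whose interval leaves out 0, or else the 2 most abundant. Others are said to be so. Cell type markers and FLI1 served as checks. Positions, overlaps and coding sequences came from GENCODE release 29 (GRCh38), and 14 of the 29 member transcripts matched it. Some genes of these lists and loci are not reported here.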

Additional observations from a re-analysis of the deposited data

How the results depend on the processing

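All 6 OAS and MX genes kept a ratio above 0 under all 9 alternatives, and 52 of the 54 values stayed within the counting interval's half-width of the reported one. The other 2 were OASL from FPKM with 0.5 or 0.1 added, both 1.56. Values with no minimum and with a minimum of 100 reads could not differ, since the minimum does not enter a gene's own ratio. Leaving out the rounding could change MX1 alone, the only member whose reads were not whole. The count of values within the half-width includes these fixed ones. The lowest and highest values were 0.94 and 0.98 for OAS1, 0.96 and 1.02 for OAS2, 0.56 and 0.59 for OAS3, 1.45 and 1.56 for OASL, 1.41 and 1.62 for MX1, and 1.35 and 1.92 for MX2. The lowest MX values came from FPKM with 0.5 added, which shrinks ratios of low levels. OASL then had the largest ratio, 1.56 against 1.41 (MX1) and 1.35 (MX2), and likewise from TPM, 1.55 against 1.53 for MX2 and less for MX1. MX2 was below ISG20 from FPKM with 0.5 (1.35, 1.74) or 0.1 added (1.75, 1.84) and from TPM (1.53, 1.78). The number of members at least 2-fold higher was 4, or 3 when scaled by library totals and from FPKM or TPM, because OAS2 then fell below 2-fold. Their median ran from 1.16 to 1.27.

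Over all genes, the 139 at least 2-fold higher became 66 from FPKM with 0.5 added, 82 from TPM, 49 at a minimum of 100 reads and 1180 with no minimum. The 56 at least 2-fold lower became 10, 23, 7 and 852 under these, and 34 with 5 reads added. The median of interferon ligand genes was 1.83 with no minimum, from genes of a few reads. Of 369 values of 41 other named genes, 368 stayed within the half-width, and PPIA from TPM was 0.0229. Here too, values under other minimums could not differ. Half-widths are also wide for genes of few reads, so staying within them says little there. TMPRSS2, whose interval has no upper limit, counted as within at 0.19 from FPKM with 0.5 added, against 2.82. P2RX7 did so at 0.24 against 1.36. From TPM the share of NM_003733 differed by -15.7 percentage points (FLI1 minus control) against -12.1 from reads, that of XM_017020140 by 15.4 against 10.0, and that of XM_017020141 by -2.0 against -0.7. Searching only before the start left 2 of the 5 promoter windows with the core GAAANNGAA. Depth limits the MX transcripts and the interferon genes, which rest on few reads. No paired analysis was possible because each group had 1 library.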
